A study of Mus musculus with 16 samples.

Results

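Gene expression was compared between Dgcr8-/- and wild-type mouse embryonic stem cells that were both kept in 2iL, a medium with inhibitors of MEK and GSK3 plus the cytokine LIF that holds such cells in a naive pluripotent state. The comparison took every entry of the deposited expression table that reached 1 FPKM (fragments per kilobase of transcript, scaled to the mapped fragments of the library, so a level corrected for gene length) in at least 2 of the 4 libraries in 2iL, which left 12068 genes of 41258 entries. The wild-type group (n = 2 libraries) came from v65 cells and the Dgcr8-/- group (n = 2 libraries) from the line ES1; strain 129/C57BL/6 and passages 9 to 11 were given for all of them. Each genotype was 1 line, so an effect of the genotype and a difference between the lines cannot be told apart anywhere below. Libraries of the same lines after 48 h of differentiation in N2B27 medium with bFGF and KSR (2 per genotype) and 2 small RNA libraries of wild-type cells in 2iL served as further readouts. The labels call the libraries biological replicates without saying what was repeated, so the p-values measure only the spread between these libraries.

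DGCR8 is the RNA-binding partner of the nuclease DROSHA. Together they cut the hairpins of most miRNAs out of long primary transcripts, and without DGCR8 these transcripts stay uncut while the mature miRNAs are lost. A mature miRNA guides an Argonaute protein to mRNAs that pair with its seed, bases 2 to 8, and lowers their level. Mouse embryonic stem cells are known for the miR-290 to miR-295 cluster and the related miR-302 cluster, which share a seed and act on inhibitors of the cell cycle, and for very low levels of let-7.

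The miRNAs of wild-type cells in 2iL were read from the 2 small RNA libraries. Their mature sequences are shown because the seed, in capitals, defines what each can pair with. Arms with the seed AAGUGCU held 10.4% and 11.1% of the deposited small RNA signal in libraries 1 and 2.
miR-295-3p: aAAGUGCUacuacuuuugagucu
miR-294-3p: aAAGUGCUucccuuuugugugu
miR-291a-3p: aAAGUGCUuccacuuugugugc
miR-302b-3p: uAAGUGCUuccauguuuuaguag
A seed shifted by 1 base, AAAGUGC, held 2.82% and 3.38% over 8 arms. These include the following members of the miR-17-92 and miR-106a-363 clusters, and arms from other loci.
miR-20a-5p: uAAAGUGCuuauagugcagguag
miR-17-5p: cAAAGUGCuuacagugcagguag
miR-20b-5p: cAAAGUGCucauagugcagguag
miR-106a-5p: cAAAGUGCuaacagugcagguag
The miR-293-3p arm of the miR-290 cluster, with another seed, alone held 10.5% and 10.7%, and the arm miR-292-5p held 11.3% and 10.7%.
miR-293-3p: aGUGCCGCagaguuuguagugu
The 13 let-7 5p arms together held 0.283% and 0.239%. The sequences are RefSeq's (GRCm38.p6), which matched 1287 of the 1696 arms. The matched arms held 74.5% and 73.5% of the signal, and arms without a match, such as miR-292-5p, were counted under no seed. The files give relative signal only, so the depth behind these shares is unknown, and arms with 1 sequence at 2 loci were listed separately.

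Dgcr8 itself was read at 18.3 and 19.2 FPKM in the wild-type libraries and at 9.11 and 9.33 in the knockout libraries. The groups did not overlap, and a transcript signal remained in the knockout; a value per gene does not show which exons it covers. Both lines had the profile of pluripotent cells. All 12 pluripotency markers were among the compared genes, for instance Pou5f1 (905 and 918 FPKM in wild type, 969 and 990 in the knockout) and Esrrb (167 and 170 against 178 and 188). Markers of other cell types were mostly low, but not equal between the lines. None of the 7 primitive endoderm markers reached the minimum, and their summed level was 1.86 to 1.95 FPKM in wild type and 1.70 to 2.23 in the knockout. Of 10 fibroblast and feeder markers only Thy1 did, with Postn and Twist2 listed at 0 in all 4 libraries and sums of 3.12 to 3.19 and 2.74 to 3.11. The 6 trophectoderm markers summed to 21.1 to 21.3 FPKM in wild type and 32.8 to 35.7 in the knockout, mostly from Tfap2c. The 6 primitive streak and mesoderm markers summed to 2.38 to 2.84 and 11.2 to 11.9, and the 5 neuroectoderm markers to 10.1 to 10.2 and 6.73 to 6.78. The 6 formative markers summed to 107.8 to 118.7 and 79.4 to 83.9, mostly from Dnmt3b. The part of other cell types in the results below was not tested. Over the 8 libraries, FPKM values summed to 533445 to 548453 per wild-type library and to 475271 to 511732 per knockout library. The scale of the values thus differed with the genotype. The replicates were correlated at 0.987 to 0.991 (Pearson, across genes on the log2 scale). In such bulk samples, fewer cells that express a gene and less RNA per cell cannot be told apart.

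Most compared genes differed between the genotypes, and most differences were small. In limma's test on log2(FPKM + 1), 8032 genes (66.6%) had an adjusted p below 0.05, of which 3880 (32.2%) were higher and 4152 (34.4%) lower in the knockout. Both knockout libraries lay above both wild-type ones for 39.7% of the genes and below them for 42.9%. All values called log2 below are differences between knockout and wild-type means on this scale, which understates changes of low genes. The median over all compared genes was -0.03, with quartiles at -0.39 and 0.40, and 3376 calls (42.0%) were of less than 0.5. At 2-fold or more, 994 genes (8.24%) were higher and 580 (4.81%) lower, at 4-fold 153 and 63, and at 8-fold 32 and 19. Of the compared genes, 10599 reached 1 FPKM in all 4 libraries. A further 950 entered through 1 genotype alone (608 through the knockout, 342 through wild type), so they had to differ, and 891 of them were called. Without them 3301 genes were higher and 3840 lower, 660 and 444 of them by 2-fold or more. With 2 libraries per group an exact permutation test of a single gene cannot fall below p = 0.333. The calls instead rest on limma's estimate of the spread. It joins the gene's own spread over all 8 libraries (4 degrees of freedom) with a spread shared across genes (3.11).

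**Figure D1:**
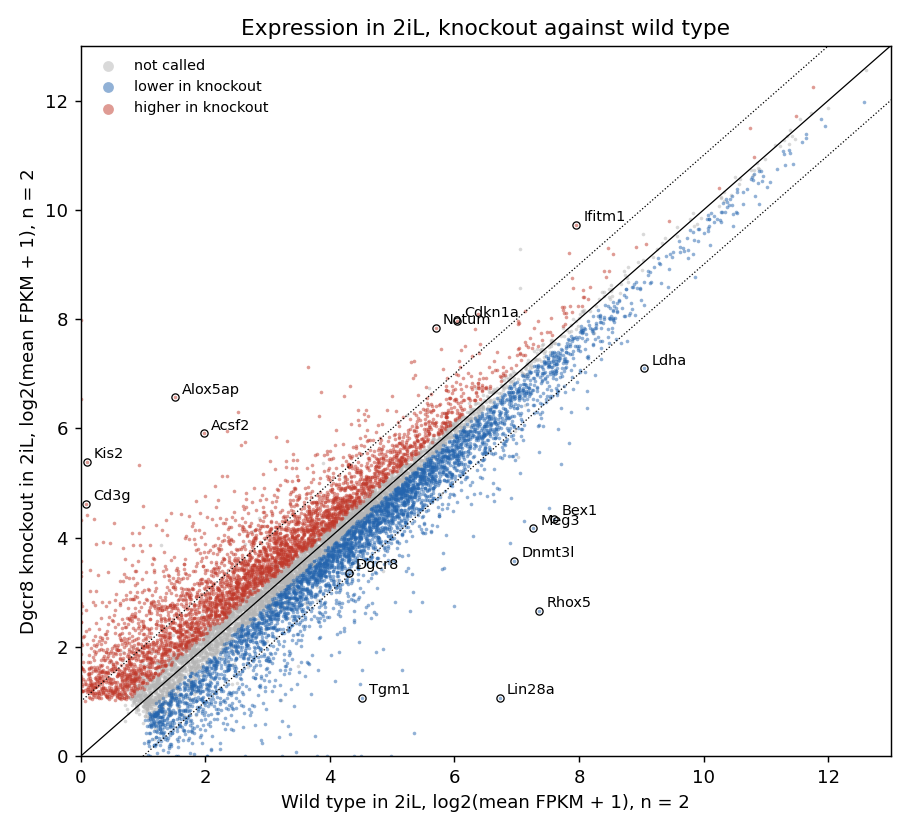
Mean expression of each of the 12068 genes in wild-type (horizontal) and Dgcr8 knockout cells (vertical) in 2iL, as log2(mean FPKM + 1) of 2 libraries each; red and blue points passed limma's test as higher or lower in the knockout, the solid line marks equality and the dotted lines a log2 difference of 1. The cloud lies along the line of equality, with 994 genes called at 2-fold or more above it and 580 below.

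Genes were named from the 10859 compared genes with 1 unambiguous symbol that is not a predicted gene model, a miRNA or another small RNA entry. Some of the entries so left out had larger differences; short transcripts have uncertain FPKM values. Of the 10859, Kis2, a noncoding transcript on the X chromosome, had the largest positive difference among those at 10 FPKM or more. It was read at 0.142 and 0 FPKM in wild type and at 39.7 and 42.3 in the knockout (log2 5.29, SE 0.14, limma adjusted p = 9.07e-07). Groups without overlap were a condition for naming it. Its RefSeq span (GRCm38.p6, chrX:52742563-52744593, minus strand) adjoins the whole miR-106a-363 cluster. All 6 hairpins of that cluster lie on the same strand within 796 bases of it, and Mir106a overlaps its end. Kis2 was the 1 noncoding gene of the comparison outside the host genes below that lay within 2000 bases of an annotated miRNA on its own strand, a search made after its value was seen. The paralogous Mir17hg, the host gene of the miR-17-92 cluster on chromosome 14, stood at 10.5 and 9.71 FPKM in wild type against 39.95 and 44.12 in the knockout (log2 1.95). In wild-type cells the mature miR-20b-5p and miR-106a-5p of the first cluster held 0.454% and 0.213% of the small RNA signal in library 1, and miR-20a-5p and miR-17-5p of the second 1.10% and 0.548%.

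Host genes of miRNAs were then compared as a group. A value per gene does not tell an uncut primary transcript from other RNA of the host. Of 10 noncoding genes that hold an annotated miRNA within their span on the same strand, 5 were higher and 4 lower. Besides Mir17hg the higher ones were Dleu2 (2.59 and 2.10 FPKM against 20.3 and 19.8), which holds Mir16-1, E130102H24Rik (2.52 and 3.15 against 13.3 and 16.9), which holds Mir101a, Mir22hg (log2 1.18) and Snhg20 (0.32). Meg3, Rian and Mirg of the imprinted Dlk1-Dio3 region and Ftx (-0.38) were lower, the last no longer called without knockout library 1 (limma adjusted p = 0.0685). Over all 357 host genes 39.8% were higher and 30.5% lower with a median of 0.06, against 32.2% and 34.4% of all compared genes. Of the 748 noncoding genes that hold no miRNA, 17.8% were higher and 25.1% lower. The 347 coding hosts covered both directions, with 39.5% higher and 30.3% lower. Mcm7, which holds the miR-106b-25 cluster and encodes a replication helicase subunit, was higher (178 and 177 against 211 and 224 FPKM). Wwp2, the host of Mir140, was lower (log2 -0.23), but lies on chromosome 8, where the median of the compared genes was -0.51.

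Genes of the miRNA pathway itself split evenly, with 4 of 12 higher and 4 lower. That is close to the shares of all compared genes, 32.2% and 34.4%. The higher ones all act in silencing: Ago1 (18.9 against 39.5 FPKM, means of 2 libraries), an Argonaute, and Tnrc6a, Tnrc6b and Tnrc6c (log2 0.88, 1.13 and 0.88), the scaffold proteins that Argonautes recruit. Lower were Dgcr8, Drosha (-0.22), the exporter of precursors Xpo5 (-0.37) and the Dicer partner Tarbp2 (-0.32), while Dicer1 (0.05), Ago2 (-0.05) and Ago3 (-0.08) did not pass the test. Reported targets of the miR-290 and miR-302 families were 13 higher and 1 lower of 15, with a median of 1.07. Because the study series is about these families, the list is no independent evidence of its direction. The largest differences in it were those of Lefty2 (37.9 against 5.30 FPKM, log2 -2.62), an inhibitor of Nodal, Cdkn1a, and the kinase Lats2 (1.07 against 6.32, log2 1.83). Irf2 (0.0124 against 2.04) and Tgfbr2, a receptor of TGF-beta (0.0186 against 1.29), entered the comparison through the knockout alone. Genes of the let-7 and LIN28 axis went both ways, 5 higher and 6 lower of 16, also close to the shares of all compared genes. Hmga2 (0.91) and Igf2bp2 (0.63) were higher, and Hmga1 (-0.95) and Igf2bp3 (-0.80) lower.

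Lin28a, whose product blocks let-7 maturation, had the largest negative difference. It stood at 110 and 99.6 FPKM in wild type and at 1.05 and 1.15 in the knockout (log2 -5.65, SE 0.07, limma adjusted p = 2.55e-08), while its paralog Lin28b did not pass the test (4.19 against 4.11 FPKM). Rhox5, a homeobox gene of the X chromosome, was at 168 and 160 FPKM against 5.40 and 5.23 (log2 -4.71). Calca, which encodes calcitonin peptides, was at 38.4 and 40.9 against 0.221 and 0.464 (log2 -4.93). In none of these did the groups come near each other. Dnmt3l, a cofactor of the de novo DNA methyltransferases, stood at 131 and 115 against 10.45 and 11.35 FPKM, and the noncoding Meg3 at 152 and 153 against 16.6 and 17.5. The remaining 7 of the 12 named for the largest negative differences were the annexin Anxa6 (log2 -3.57), the transglutaminase Tgm1 (-3.45), the meiotic Hormad2 (-3.40), the growth cone protein Gap43 (-3.39), the X-linked Bex1 (-3.28), Nt5dc2 (-3.24) and Fkbp11 (-3.17). Gap43 was listed at 0.103 and 0 FPKM in the knockout.

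Among the higher genes, Alox5ap, needed for leukotriene synthesis, was at 2.43 and 1.27 FPKM in wild type and at 83.0 and 105 in the knockout, with the widest error of those named (log2 5.08, SE 0.73, limma adjusted p = 6.62e-04). That error is pooled over all 8 libraries, and the knockout libraries at 48 h were far apart, at 49.1 and 7.03 FPKM. Cd3g and Cd3d, subunits of the T-cell receptor complex, were under 0.1 FPKM in wild type and at 22.6 and 24.5 and at 17.7 and 23.1 FPKM in the knockout. The osteocalcin paralog Bglap3 (log2 4.39), the aspartoacylase Aspa (4.13), the mitochondrial acyl-CoA synthetase Acsf2 (2.93 and 2.97 against 56.9 and 61.6 FPKM), the water channel Aqp3 (3.76) and the oxidase Aox3 (3.75) followed. The other members of the 12 were Megf11 (3.64), H2-Bl (3.64) and Rhox9 (3.59), of which H2-Bl and Rhox9 belong to families of close paralogs whose reads could have been split in counting. Of the 10859, genes with under 0.1 FPKM in both libraries of 1 genotype and at least 5 in both of the other numbered 4 for the knockout, namely Cd3g, Cd3d, the noncoding Lncpint (0 and 0 against 9.53 and 9.26) and Loxl4, a lysyl oxidase (5.51 and 5.87 FPKM in the knockout). For wild type there was 1 such gene, the metallothionein Mt3 (7.32 and 9.57 FPKM against 0 and 0), which lies on chromosome 8. Of the genes named so far, Kis2, Cd3g, Cd3d, Aspa, Aox3, Megf11, Lncpint and Loxl4 entered the comparison through the knockout alone, and Calca, Hormad2, Gap43, Ftx and Mt3 through wild type alone.

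**Figure D2:**
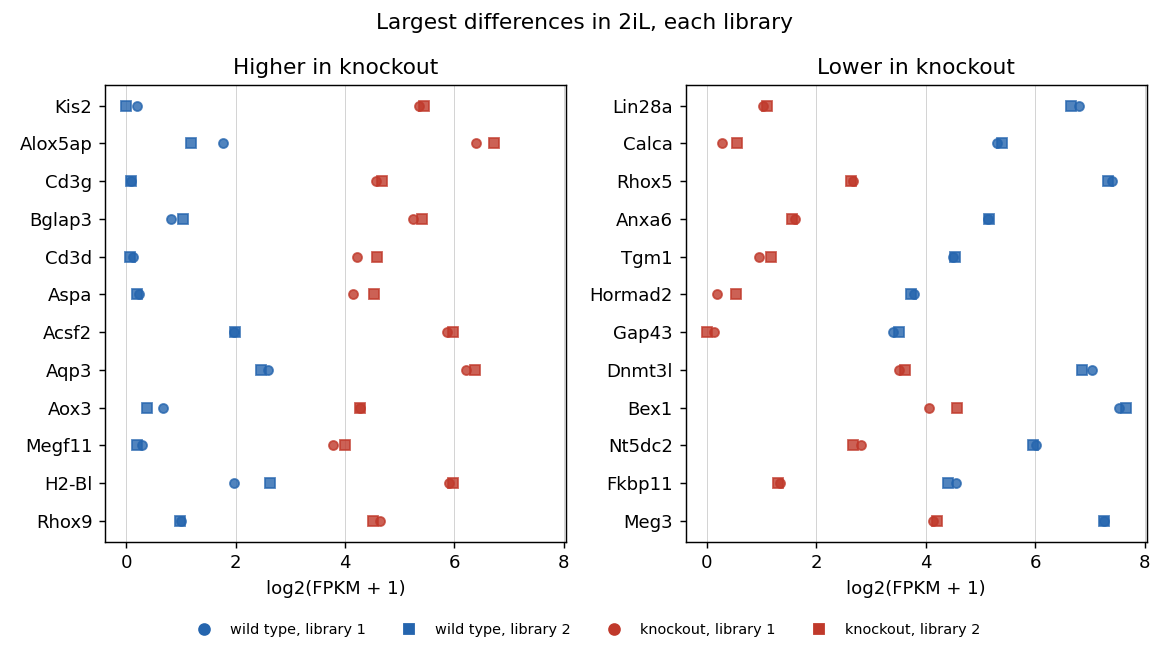
Expression of the 12 genes with the largest positive (left) and the 12 with the largest negative (right) difference among the 10859 eligible genes, called and at 10 FPKM or more in 1 genotype, as log2(FPKM + 1) in each of the 4 libraries (blue wild type, red knockout, circles library 1, squares library 2). A condition for naming these 24 genes was that both libraries of 1 genotype lie above both of the other. Alox5ap and H2-Bl show the widest gap between wild-type replicates.

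Among genes expressed at 50 FPKM or more in both genotypes the differences were smaller. Ldha, the lactate dehydrogenase subunit of glycolytic cells, was at 528 and 529 FPKM against 132.5 and 140.2 (log2 -1.95, SE 0.04, limma adjusted p = 3.83e-07). Cdkn1a, the inhibitor of cyclin-dependent kinases known as p21, was at 66.4 and 62.9 against 246 and 253 (log2 1.93). Ifitm1, an interferon-inducible membrane protein, was at 249 and 245 against 788 and 909 (1.77). The secreted WNT inhibitor Notum (2.15), the alkaline phosphatase Alpl (1.71), Marc2 (1.66), the RNA helicase Mov10 (1.48), the myosin light chain Mylpf (1.38) and the lysosomal Psap (1.34) were also higher in both knockout libraries than in both wild-type ones. Lower were the nucleotide pyrophosphatase Dctpp1 (-1.75), the mitochondrial import gene Tomm5 (-1.67), the serine synthesis enzyme Psat1 (-1.58), the polyamine enzyme Odc1 (-1.44), Pebp1 (-1.38), Bex3 (-1.35) and Gcsh of the glycine cleavage system (-1.31).

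The differences were not spread evenly over the chromosomes. On chromosome 8 the median of 583 genes was -0.51, with 391 lower (67.1%) and 70 higher (12.0%), and 79.6% of the genes had a negative difference. On chromosome 3 the median of 534 genes was 0.28, with 288 higher (53.9%) and 87 lower (16.3%). The medians of the other 18 chromosomes without Y lay between -0.18 (chromosome 14) and 0.14 (chromosome 6). Each pairing of a knockout with a wild-type library gave -0.55 to -0.47 on chromosome 8 and 0.25 to 0.33 on chromosome 3. Both shifts ran along the whole chromosome: bins of 20000000 bases had medians of -0.62 to -0.20 on chromosome 8 and of 0.18 to 0.43 on chromosome 3. Between the knockout and wild-type libraries at 48 h the medians were -0.53 and 0.26. What part this has in the difference of any single gene on them was not tested. Of the genes with a known position, 10506 lie elsewhere, of which 32.3% were higher and 33.9% lower.

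**Figure D3:**
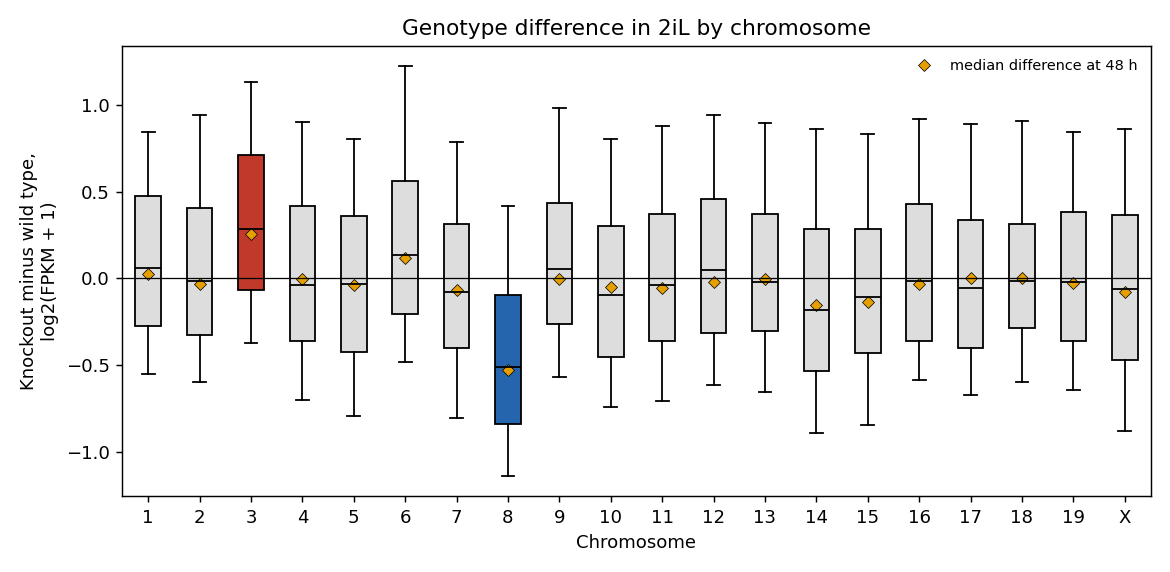
Differences between knockout and wild type in 2iL, as log2(FPKM + 1), for the genes of each chromosome (boxes show quartiles and median, whiskers the 10th and 90th percentiles, diamonds the median difference at 48 h). Chromosome 8 (blue) lies lowest, with a median of -0.51, and chromosome 3 (red) highest, with 0.28, and the 48 h medians repeat this.

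Some of the larger differences lay side by side. Runs of at least 3 consecutive compared genes that were all called at 2-fold or more in 1 direction numbered 35 higher and 10 lower, with 117 and 31 genes; the rule was made after the data were seen, and members of a run are not independent. Cd3e lies beside Cd3g and Cd3d on chromosome 9 (chr9:44969572-45009663, GRCm38.p6), and all were higher by at least 3.27 on the log2 scale. Meg3, Rian and Mirg formed a lower run at chr12:109540996-109749458, with differences of -1.87 to -3.09. On chromosome 10 the glycolytic enzyme Pfkl, the transcriptional regulator Aire, Dnmt3l and the immune ligand Icosl were lower side by side (chr10:77986947-78079525). The spans of Aire and Dnmt3l overlap, so reads in the overlap cannot be told apart. On chromosome 3 the glutathione transferases Gstm1, Gstm2, Gstm3 and Gstm6 were higher by 1.34 to 2.31, and on the X chromosome Bex1, Tceal9 and Bex3 were lower. The longest run, of 6 genes on chromosome 12, consists of numbered gene models, and the Zscan4 and Usp17l genes are close paralogs, so the single values of these are uncertain.

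Serine synthesis and other targets of ATF4, the transcription factor of the amino acid response, were lower nearly throughout: 14 of 16 were lower and 1 higher, with a median of -0.73. Chac1, which degrades glutathione, was at 15.3 against 2.60 FPKM (log2 -2.18), Phgdh, the entry enzyme of serine synthesis, at 119 against 25.6 (-2.17) and the pseudokinase Trib3 at 26.0 against 7.42 (-1.68). Atf4 itself was at 207 against 121 FPKM (-0.77). Cth, an enzyme of cysteine synthesis, was the higher one (0.82), and Sesn2 did not pass the test (0.12), but was called as higher without wild-type library 1 (limma adjusted p = 0.038). Without chromosomes 3 and 8, where Phgdh and Cth drop out with chromosome 3, 13 of 14 were lower.

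The promoters of these genes were searched for TTNCATCA, the core of the element that ATF4 is known to bind, on both strands (TGATGNAA), after the counts of the list had been seen. Within 250 bases before to 50 after the gene start it occurred in 5 of 15 listed promoters (Asns, Atf3, Chac1, Pck2 and Trib3), in 2.59% of the promoters of all compared genes, in 2.49% of those of lower genes and in 3.97% of all 32851 RefSeq promoters. Shown are the stretches around the match in the upstream part of the promoter, with the match in capitals, because these letters set the 4 genes apart from the list members without a match.
Asns (chr6:7693210-7693272, minus strand): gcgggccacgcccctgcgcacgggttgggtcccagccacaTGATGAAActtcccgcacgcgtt
Atf3 (chr1:191183396-191183483, minus strand): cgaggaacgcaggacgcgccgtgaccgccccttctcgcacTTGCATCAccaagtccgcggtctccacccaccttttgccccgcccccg
Chac1 (chr2:119351009-119351096, plus strand): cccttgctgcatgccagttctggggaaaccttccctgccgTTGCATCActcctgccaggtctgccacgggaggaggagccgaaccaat
Pck2 (chr14:55540123-55540210, plus strand): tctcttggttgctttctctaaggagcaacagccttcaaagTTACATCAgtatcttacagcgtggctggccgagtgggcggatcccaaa
The genes with the match differed by -0.65 (Asns), -1.06 (Atf3, which entered through wild type alone), -2.18 (Chac1), -0.62 (Pck2) and -1.68 (Trib3). Phgdh (-2.17) and Psat1 (-1.58) had no such letters in this window. A match describes the sequence and not binding.

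Genes of mitochondria and of protein turnover were mostly lower by small amounts. Of 77 mitochondrial ribosomal proteins 57 were lower and 3 higher (median -0.40), led by Mrpl34 (122 against 44.1 FPKM) and Mrpl20 (105 against 43.4). Nuclear subunits of respiratory complexes II to V were 31 lower and 1 higher of 39 (median -0.34; 20 lower and 5 higher, -0.14, after quantile scaling), with Sdhd (-1.02) and Cox7b furthest, and those of complex I 27 lower and 1 higher of 39 (-0.24), which after quantile scaling became 13 lower and 8 higher (-0.04). The 13 subunits encoded in the mitochondrial genome went the other way, with 8 higher, none lower and a median of 0.39, for example mt-Co1 (3471 against 4868 FPKM), mt-Nd4l (0.84) and mt-Co3 (0.60). Of 46 proteasome genes 33 were lower and 5 higher (median -0.41), and the higher ones included Psme2 (45.6 against 107 FPKM) and Psmb8 (listed at 0 in wild type, 2.12 in the knockout), which belong to the interferon-inducible immunoproteasome. Psmb10, another immunoproteasome subunit, was lower (log2 -0.84) and lies on chromosome 8. After quantile scaling 28 proteasome genes were lower and 9 higher. Cytoplasmic ribosomal proteins were 51 lower and 4 higher of 80 (median -0.22), and SR and hnRNP splicing proteins 21 lower and 1 higher of 30 (-0.25), but after quantile scaling these became 29 lower and 24 higher (-0.01) and 10 lower and 7 higher (0.01). Ribosomal protein transcripts summed to 106400 to 119200 FPKM per knockout library against 129700 to 131700 in wild type.

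Metabolic pathways outside the mitochondrion moved less evenly. Of 21 glycolysis genes 13 were lower and 4 higher (median -0.33). Behind Ldha the furthest were the muscle enolase Eno3 (12.1 against 2.63 FPKM) and Pfkl (52.9 against 20.1), while the muscle phosphofructokinase Pfkm was higher (14.2 against 26.6) and Gapdh did not pass the test (0.07). Cholesterol synthesis genes were 12 lower and 5 higher of 22 (-0.26), led by Tm7sf2 (-1.17), Msmo1 (-0.84) and Lss (-0.84). Without chromosomes 3 and 8 the cholesterol list was 9 lower and 5 higher of 19, with a median of 0.06. Lysosomal and autophagy genes were the contrary case, 15 higher and 5 lower of 23 (median 0.40). The membrane protein Lamp2 was at 21.1 against 65.5 FPKM, the hexosaminidase Hexa at 13.2 against 31.1 and the protease Ctsa at 67.0 against 138. Of the 5 lower ones 3 lie on chromosome 8, and the regulators Tfeb (-0.12) and Tfe3 (-0.004) did not pass the test.

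**Figure D4:**
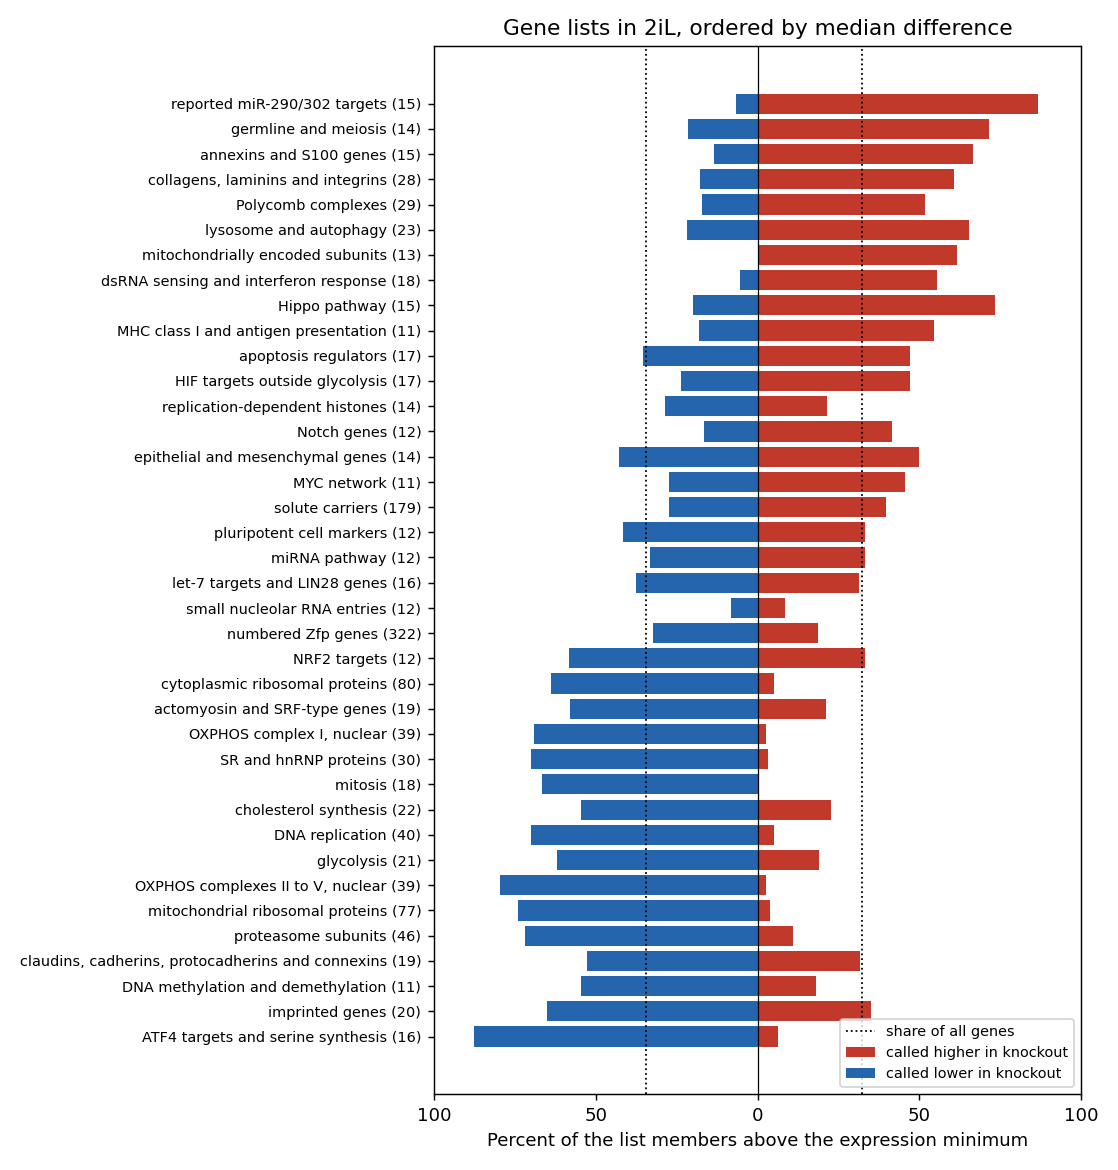
Percent of the genes of each list that were called higher (red, to the right) or lower (blue, to the left) in the knockout in 2iL, ordered by the median difference; the number of list genes above the expression minimum is in parentheses, lists with under 10 are left out, and dotted lines mark the shares of all genes, 32.2% and 34.4%. The reported miR-290/302 targets stand at the top with 13 of 15 higher and the ATF4 list at the bottom with 14 of 16 lower.

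Of 40 DNA replication genes 28 were lower and 2 higher (median -0.31), or 23 lower and 7 higher (-0.21) after quantile scaling. The 4 of them on chromosome 8 were all lower. Outside chromosomes 3 and 8, 24 of 36 were lower and 2 higher (-0.30). The polymerase subunit Pole was at 34.8 against 11.7 FPKM, the helicase subunit Mcm5 at 239 against 105 and Orc6 of the origin recognition complex at 60.4 against 30.3, while Pola1 (0.38) and Mcm7 (0.29) were higher. Pole lies in one of the lower runs on chromosome 5, beside Pgam5 and Pxmp2. Of 18 mitosis genes 12 were lower and none higher (-0.26), with the centromere histone Cenpa (-0.94), cyclin B1 (Ccnb1, -0.90) and survivin (Birc5, -0.80) furthest; after quantile scaling the counts were 10 lower and 4 higher. In the MYC network 5 of 11 genes were higher and 3 lower (median 0.15). Mycl (-1.16) and Myc (7.99 against 3.31 FPKM) were lower, and the MYC antagonist Mxd4 was higher (0.475 against 2.92), having entered through the knockout alone. Of the Hippo pathway 11 of 15 genes were higher and 3 lower (median 0.36), including both kinases Lats1 (0.66) and Lats2 and the effectors Tead4 (1.14) and Wwtr1 (0.85). Apoptosis regulators were 8 higher and 6 lower of 17, with Pmaip1 (1.59) and Casp2 (1.26) higher and the BH3 protein Bid lower (-0.99). The counts of all these lists stand against 32.2% higher and 34.4% lower among all compared genes.

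Chromatin genes differed by class. Polycomb genes were 15 higher and 5 lower of 29 (median 0.42). The PRC2 accessory factor Aebp2 was at 31.0 against 95.3 FPKM, Cbx8 at 0.712 against 2.48 and the PRC1 subunit Phc3 at 2.79 against 6.23. Within PRC2 the core subunit Suz12 was higher (0.74), Eed lower (-0.67) and Ezh2 without a call (0.02). Genes of DNA methylation were 6 lower and 2 higher of 11: behind Dnmt3l came the glycosylase Tdg (-1.07), Tet2 (10.3 against 19.6 FPKM, log2 0.87), Dnmt3b (-0.79) and Dnmt3a (-0.76), while the maintenance enzyme Dnmt1 did not pass the test (0.03).

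Germline and imprinted genes had some of the largest differences. Of 14 germline and meiosis genes 10 were higher and 3 lower (median 0.86), led by the translational regulator Nanos3 (1.52 against 12.3 FPKM), Hormad1 (6.58 against 34.7) and the cohesin Rec8 (3.97 against 18.3). Dazl (1.11 against 7.29), an RNA-binding protein of germ cells, was also higher. All 20 imprinted genes passed the test, 13 lower and 7 higher. The largest of these differences were those of Plagl1, a zinc finger factor (5.20 against 53.2 FPKM), Meg3, Rian (182 against 22.4), Nespas (1.59 against 19.07) and Phlda2 (25.8 against 2.74). Nespas runs antisense within the Gnas locus, and Gnas was lower (102 against 29.1); the counting is not stated to use strand, so reads of such partners cannot be told apart. On the X chromosome, Rhox6 (1.48 against 16.7) and Rhox9 were higher and Rhox5 lower. The 4 Zscan4 genes, markers of a rare 2-cell-like state, all entered the comparison through the knockout alone and so had to be higher; their summed level was 1.76 to 1.98 FPKM in wild type and 18.5 to 20.4 in the knockout.

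Of 18 genes of dsRNA sensing and interferon response 10 were higher and 1 lower (median 0.36). Besides Ifitm1 these were led by Oas1a, a sensor of dsRNA (9.82 against 29.0 FPKM), the antiviral Rsad2 (0.0856 against 1.85), which entered through the knockout alone, Zc3hav1 (12.3 against 32.7), Irf1 (16.1 against 37.8) and the adaptor Mavs (12.2 against 28.0). The sensors Ddx58 (-0.07), Eif2ak2 (0.04) and Adar (0.16) did not pass the test. Of 11 genes of antigen presentation 6 were higher and 2 lower (median 0.31; 6 and 1 of 9, 0.91, without chromosomes 3 and 8), and Erap1, Psmb8 and Tap1 entered through the knockout alone. Higher were the peptide-loading gene Tapbp, at 8.88 against 41.1 FPKM, Erap1 at 0.319 against 3.71 and B2m at 4.37 against 9.54, while H2-K1 was lower (6.29 against 2.35). H2 genes are close paralogs and their values are uncertain.

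Adhesion and surface genes differed in both directions. Annexins and S100 genes were 10 higher and 2 lower of 15, the lower ones being Anxa6 and S100a10 (-1.47) and the leading higher ones Anxa3 (0.704 against 8.61 FPKM) and Anxa2 (5.90 against 29.1). Without chromosomes 3 and 8 the count was 6 higher and 1 lower of 8. Anxa3 entered through the knockout alone. Collagens, laminins and integrins were 17 higher and 5 lower of 28 (median 0.55), with Itgb4 (0.957 against 5.60), Itgav (7.79 against 24.4) and Col9a2 (1.70 against 5.82) furthest. Of these 28, 5 entered through the knockout alone and 1 through wild type alone, so the filter fixed the direction of these. Among junction genes, 10 of 19 were lower and 6 higher (median -0.44), and without chromosomes 3 and 8 the count was 8 lower and 6 higher of 17 (-0.14), with Cldn6 (8.05 against 0.282) lower and Gjb1 (0.461 against 4.16) and Cdh4 (0.615 against 3.33) higher. Of these, Cldn6 entered through wild type alone and Gjb1 and Cdh4 through the knockout alone. Genes of epithelial and mesenchymal identity went to both sides, 7 higher and 6 lower of 14 (median 0.16), against 32.2% and 34.4% of all compared genes. Without chromosomes 3 and 8 the list was 7 higher and 4 lower of 12 (0.56), since Cdh1 and Esrp2 lie on chromosome 8. Those lower were epithelial: the splicing factors Esrp1 (8.22 against 1.99) and Esrp2 (-0.57), Ovol2 (-1.09), E-cadherin (Cdh1, -0.56), Krt18 (-0.39) and Krt8 (-0.31), the last 5 values being log2. Krt18 was not called without wild-type library 2 or without knockout library 1 (limma adjusted p = 0.223 in both cases). The higher ones were mesenchymal genes, receptors and repressors: Zeb1 (2.45 against 7.47), Snai1 (1.84 against 5.82), Tgfbr2, Tgfbr1, Fn1 (139 against 282), Vim (353 against 634) and Cdh2 (1.70 against 3.23).

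Signalling and lineage genes showed single large differences rather than a common direction. Fgf17 was at 9.29 against 0.318 FPKM and Fgf10 at 1.11 against 0.0221, and both entered through wild type alone, while Fgf4, the main FGF of these cells, was slightly lower (-0.24). Notch4 (3.27 against 10.7) and Notch2 (3.50 against 9.24) were higher and Notch3 (4.36 against 0.841), which entered through wild type alone, lower. Of the 12 pluripotency markers 4 were higher and 5 lower, close to the shares of all compared genes, 32.2% and 34.4%. Sox2 (125 and 134 against 239 and 256 FPKM) and Dppa5a (0.74) were higher and Utf1 (-0.55) and Dppa4 (-0.34) lower. After quantile scaling 7 of the markers were higher and 2 lower. The WNT effector Lef1 (4.37 against 19.8), Evx1 (0.688 against 5.53) and Gsc (1.00 against 4.22) were higher, whereas Sox3 (2.69 against 0.779), Nes (6.68 against 2.68) and Otx2 (3.51 against 2.16) were lower. Within the same lists Pax6 was higher (log2 0.51), and T, below the expression minimum, was at 0.555 and 0.747 FPKM in wild type and 0.119 and 0.289 in the knockout. Evx1 had entered through the knockout alone and Sox3 through wild type alone.

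Most of the genes called in 2iL were also called in the same direction at 48 h. The groups compared share no library, but both sets of calls come from 1 fit with a common estimate of the spread over all 8 libraries, so they are not independent. At 48 h 71.6% of the same genes were called, 34.1% higher and 37.4% lower. Of the 3880 genes higher in 2iL 70.3% were also higher at 48 h, 8.38% were lower and 21.3% were not called. Of the 4152 lower ones 74.2% were also lower and 8.48% higher. By sign alone, which does not use the spread, 3266 of the 3880 were above 0 at 48 h and 3555 of the 4152 below. Among differences of 2-fold or more, 80.5% of the higher and 77.6% of the lower genes were called in the same direction. Both conditions use the same 2 lines. The size of the difference changed between 2iL and 48 h for 5038 genes (41.7%) by the interaction test in limma.

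Of the called genes 677 were called in opposite directions in 2iL and at 48 h. Tgm1 was 21.6 and 22.1 FPKM in wild type against 0.944 and 1.26 in the knockout in 2iL (log2 -3.45), and at 48 h it was higher in the knockout (1.63; limma adjusted p of the change = 1.66e-06). Dnmt3l went from -3.38 to 1.22, its neighbour Aire from -1.82 to 2.90, Ripply1, a transcriptional repressor of the X chromosome, from -1.81 to 2.08 and S100a10 from -1.47 to 1.43. The RefSeq spans of Aire (chr10:78030022-78043610) and Dnmt3l (chr10:78042287-78063622) overlap. The counting is not stated to use strand, so reads in the overlap cannot be told apart. In the other direction H2-Bl went from 3.64 to -1.50 and H2-Q4 from 1.60 to -1.72, both paralogs with uncertain values. Notum (2.15 in 2iL, 6.47 at 48 h) and Mov10 (1.48 and 4.03) kept their direction and differed more at 48 h, whereas Loxl4 (2.71 and 0.26) differed less.

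**Figure D5:**
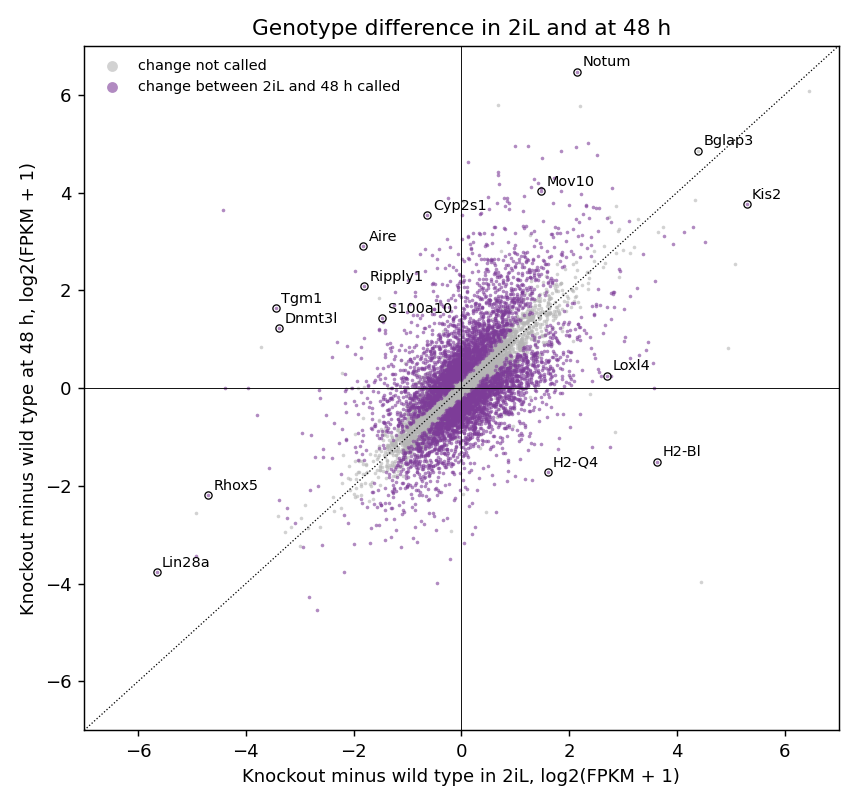
Difference between knockout and wild type at 48 h (vertical) against that in 2iL (horizontal), as log2(FPKM + 1), for the 12068 genes; purple points are the 5038 whose difference changed by limma's interaction test, and the dotted line marks equal differences. Most genes lie in the quadrants of equal sign, while Tgm1, Dnmt3l, Aire, Ripply1 and S100a10 lie at upper left and H2-Bl and H2-Q4 at lower right.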

How the data were processed

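Per the submitters' processing notes, RNA reads were processed with STAR 2.5.0 and Cufflinks 2.2.1 on mm10, and the authors deposited gene-level FPKM. The role of each tool, the annotation and the use of strand in counting are not given in the sources used here, while the labels name polyA RNA and dUTP libraries. The small RNA files hold, as deposited, signal values for hairpin arms on a scale whose total is equal between libraries. Sequencing depth of the FPKM libraries is unknown. Here, log2(FPKM + 1) was fitted with limma 3.58.1 in R 4.3.3 (4 group means over 8 libraries, intensity trend), for the 13172 entries at 1 FPKM or more in at least 2 of the 8 libraries, with Benjamini-Hochberg adjustment over all of them and calls below 0.05. The residual degrees of freedom were 4, the prior degrees of freedom 3.11 and the median SE 0.0882. The procedure was tested on simulated data. The 39 identifiers on more than 1 row stayed separate and were never named. Positions came from RefSeq (GRCm38.p6) by symbol, with a position for 11623 genes.

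The members and gene lists were chosen with earlier results of these data known, and so were the tests. Genes were named by rule among 10859 eligible ones: the 12 largest differences each way among called genes at 10 FPKM or more, 8 each way at 50 FPKM or more in both genotypes, genes at under 0.1 against 5 or more, the 3 largest called differences per list, and 6 each for reversals and for the largest interactions. Other list genes named were chosen after their values were seen. Alternatives were a pseudocount of 0.1, other expression filters, median-ratio and quantile scaling, a fit of the 4 libraries in 2iL, a replicate block and leaving out each library. Deviations of same-numbered libraries were correlated at 0.13 between the genotypes in 2iL and at -0.153 to 0.18 for the other groups, and numbers were not taken to pair libraries.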

Additional observations from a re-analysis of the deposited data

Results flagged for a closer look

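Of 49 genes named by the rules that run over all genes, 38 had a difference between knockout and wild type that changed between 2iL and 48 h by the interaction test in limma at an adjusted p below 0.05. For 12 of them the change was of 2 or more on the log2 scale. The difference at 48 h minus that in 2iL was 5.08 for Tgm1, 4.72 for Aire, 4.60 for Dnmt3l, 4.33 for Notum, 4.17 for Cyp2s1, 3.90 for Ripply1, 2.90 for S100a10, 2.55 for Mov10 and 2.52 for Rhox5. It was -5.14 for H2-Bl, -3.32 for H2-Q4 and -2.45 for Loxl4. Cyp2s1, a cytochrome P450 gene, was the smallest of these in 2iL (6.56 and 5.36 FPKM in wild type against 3.26 and 3.71 in the knockout). Rhox5 was lower in the knockout in both conditions, by -4.71 in 2iL and -2.19 at 48 h. These genes were named partly for their large change, so the values describe them and test nothing further.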

How the results depend on the processing

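The counts of higher and lower genes kept within 1.5 times of the reported ones under other scalings, pseudocounts and fits. The 2-fold counts came near that bound with a pseudocount of 0.1, at 1411 higher and 860 lower genes against 994 and 580. A filter on a mean of 5 FPKM or more over the 8 libraries left fewer genes to test, with 2534 higher genes and 484 of 2-fold or more. In the reported fit, chromosome 8 genes with a mean of 5 FPKM or more in 2iL had a median of -0.5736. Median-ratio scaling gave 4463 higher and 3666 lower genes, moved the median of all genes from -0.0259 to 0.0459, and gave medians of 0.361 for chromosome 3 and -0.442 for chromosome 8. Leaving out 1 library gave 3403 to 3679 higher and 3623 to 4106 lower genes, a chromosome 3 median of 0.2481 to 0.3313 and a chromosome 8 median of -0.5334 to -0.4722; the arm left with 1 library is assumed to vary like the others. A replicate block, which treats equal numbers as a pairing, gave 3813 higher and 4078 lower genes and moved no count by over 1.5 times. Leaving out chromosomes 3 and 8, an alternative chosen after seeing the data, gave 3522 and 3674. Of 543 called genes that are named or in the smaller lists, 444 were called in the same direction under every setting tried, as were all 41 of the rules for the largest and the most abundant differences. Quantile scaling turned the sign of 20 of the 543. Pou5f1, Dnmt1 and Sesn2, without a call as deposited, were called as higher after median-ratio and after quantile scaling, Gapdh and Adar after median-ratio scaling and Esrrb and Ezh2 after quantile scaling, whereas Drosha lost its call there. Depth is unknown, so no counting error could be given for low genes.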

Other observations

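Some gene groups that the text above does not describe also differed in 2iL. Among targets of the hypoxia-inducible factors outside glycolysis 8 of 17 were higher and 4 lower (median 0.25), against 32.2% and 34.4% of all compared genes. The lactate transporter Slc16a3 (16.9 against 3.86 FPKM) was lower, and the prolyl hydroxylases Egln3 (2.15 against 10.5) and P4ha1 (5.83 against 14.5) were higher. Of 12 targets of the antioxidant factor NRF2 7 were lower and 4 higher, or 4 lower and 2 higher of 7 without chromosomes 3 and 8, with the heme oxygenase Hmox1 on chromosome 8 at 77.6 against 15.3 FPKM, Gstm1 on chromosome 3 at 38.6 against 148 and G6pdx at 36.9 against 20.7. Actin cytoskeleton genes were 11 lower and 4 higher of 19 (median -0.22), with Cnn2 lower (8.65 against 2.38) and Fhl1 higher (5.32 against 25.2).

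Of 179 solute carriers 71 were higher and 49 lower (66 and 37 of 159 without chromosomes 3 and 8), against 32.2% and 34.4% of all compared genes. Of 322 numbered zinc finger genes 60 were higher and 104 lower, and 158 did not pass the test. The 6 Y-linked genes above the minimum were read in both lines, with Eif2s3y at 11.9 against 12.2 FPKM and Uba1y at 1.06 against 9.35.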
